A study of Mus musculus with 8 samples.

Results

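The 9 genes described here encode feedback inhibitors of MAP kinase signalling: the dual-specificity phosphatases Dusp1, Dusp2, Dusp4, Dusp5, Dusp6 and Dusp10, the Sprouty proteins Spry1 and Spry2, and the Sprouty-related protein Spred1. They were chosen by symbol from a deposited table of 24421 symbols, and all 9 were found. The RNA came from CD4+ T cells that were sorted out of digested knee joints of 16-week-old male mice with antigen-induced arthritis, an inflammation of the joint directed at an antigen given before. The groups were 4 wild-type libraries and 4 Slc7a5 knockout libraries, Slc7a5 being the transporting subunit of LAT1, which imports large neutral amino acids. The labels do not say how or in which cells Slc7a5 was deleted, nor whether separate animals gave rise to the libraries, so p-values here measure only the spread between libraries, part of which may be technical. Because these are bulk samples, fewer cells of a type and less RNA per cell cannot be told apart.

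Antigen receptors and cytokine receptors activate the MAP kinases ERK, JNK and p38 through cascades of kinases, and the ERK branch runs through Ras. Active kinases then raise transcription of their own inhibitors. Dusp proteins remove the activating phosphates from the kinases, in the nucleus (Dusp1, Dusp2, Dusp4, Dusp5), in the cytoplasm (Dusp6) or in both (Dusp10), while Sprouty and Spred proteins act upstream, at the level of Ras and Raf. In T cells several of these transcripts are short-lived and rise soon after receptor engagement.

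The RefSeq promoter table (GRCm38.p6) held 8 of the 9 genes, all but Dusp4. Stretches of 3 promoters are shown because they carry the motif matches found near the start sites of the 2 members with the most transcript per length in wild type and of Dusp2, whose promoter holds a match to the same E-box. Each runs from base 150 to base 61 before the RefSeq start, 5′ to 3′ on the strand of the gene. In the GENCODE annotation, exons of any gene and strand cover all 90 bases of the Dusp5 stretch and 0 in Dusp1 and Dusp2. Capitals mark the cAMP response element TGACGTCA and the E-box CACGTG in Dusp1 (chr17:26508533-26508622, minus strand), the E-box in Dusp2 (chr2:127336009-127336098, plus strand) and a pair of adjoining CArG boxes, the motif bound by serum response factor, in Dusp5 (chr19:53528995-53529084, plus strand).
Dusp1: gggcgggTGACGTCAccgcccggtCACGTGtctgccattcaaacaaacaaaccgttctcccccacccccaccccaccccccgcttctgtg
Dusp2: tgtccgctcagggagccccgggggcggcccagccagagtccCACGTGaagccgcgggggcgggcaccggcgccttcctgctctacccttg
Dusp5: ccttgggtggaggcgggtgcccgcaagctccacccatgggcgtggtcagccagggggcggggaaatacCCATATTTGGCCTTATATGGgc
Over the 250 bases before the start and on both strands, TGACGTCA was found in 1.55% of 32851 RefSeq promoters, CACGTG in 6.02% and a CArG box in 1.47%. Of the 8 members searched, TGACGTCA was in 1, CACGTG in 2 and a CArG box in 1. GGAAAA, which is part of NFAT sites and stands in 20.4% of promoters, was found only in Spry2 among the 8, starting 96 and 16 bases before the start. TGANTCA (AP-1), CCGGAA (ETS) and TGATGCAA (an ATF4 site) were in 0 of the 8, against 6.75%, 12% and 0.791% of all promoters. A match describes letters and does not show that a factor binds there.

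The libraries held 18837650 to 36436923 counts. Of the 24421 symbols, 8489 passed the filter on low counts, among them all 9 members. The targeted gene Slc7a5 was counted 385, 194, 410 and 0 times in wild-type replicates 1 to 4 and never in knockout, so it does not check wild-type replicate 4. Its partner chain Slc3a2 was at 235 to 350 counts scaled to 1000000 per library (CPM) in wild type and 378 to 471 CPM in knockout. Within each genotype replicate 4 had the fewest genes with a count, 7957 in wild type and 5221 in knockout. Replicates 1 to 3 had 10139, 9934 and 9815 such genes in wild type and 8640, 7684 and 9358 in knockout. Their total counts were 26927245 to 36436923 in wild type and 21689444 to 25853856 in knockout, so both measures ran with genotype there too. More than 3 counts were present for 4 of the 9 members in knockout replicate 4 and for 7 to 9 in each other library (7 in wild-type replicate 4). Values are therefore given with both and, where they matter, without both. T cell markers were present in all 8 libraries, with Cd3e, a chain of the T cell receptor complex, at 407 to 554 CPM in wild type and 330 to 382 CPM in knockout. Markers of antigen-presenting cells summed to 1287 to 3134 CPM in wild type and to 8813, 10082, 2030 and 11142 CPM in knockout libraries 1 to 4. In that list of 20 markers, Adgre1 and Mrc1 were at 0 in every library, and Cd74, the invariant chain of MHC class II, was at 881 to 1969 CPM in wild type and 1434 to 7352 CPM in knockout. The MHC class II genes made up most of these sums, with Cd74 and H2-Ab1 at knockout means of 4837 and 2071 CPM against wild-type means of 1172 and 290.2 CPM. The myeloid markers Lyz2 (23.7 and 6.47 CPM), Cd14 (23.4 and 5.61 CPM) and Fcer1g (28.1 and 23.6 CPM in wild type and knockout, by the mean) had lower estimates. Higher estimates were found for Cd68 (31.6 and 40.7 CPM), Tyrobp (17.8 and 31.7 CPM), Xcr1 (28.4 and 75.6 CPM) and Flt3 (4.54 and 13.5 CPM). These markers other than Cd74 were named after their values were seen. Summed B cell markers reached at most 39.6 CPM in any library, CD8 T and natural killer cell markers 123 CPM, neutrophil markers 143 CPM, synovial fibroblast markers 157 CPM and endothelial markers 158 CPM, with 5 of 8, 3 of 7, 1 of 9, 4 of 12 and 3 of 10 of the markers in the table at 0 in every library. The part of other cell types in the results below was not tested.

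All 6 Dusp transcripts had lower estimates in knockout and all 3 Sprouty and Spred transcripts had higher ones (Spry1 a lower one without knockout replicate 4 and in limma voom), but no member passed the test. By the quasi-likelihood test of edgeR, adjusted over 8489 genes by Benjamini and Hochberg, 0 members and 0 genes of all (0%) had an adjusted p under 0.05. At an unadjusted p under 0.05 there were 0 members and 326 genes (3.84%). DESeq2 called 0 members and 387 of 10659 genes (3.63%), and limma voom 0 members and 4 genes (0.0471%), with or without quality weights. Lower estimates were common among all tested genes (55%), and the median log2 fold change, knockout over wild type, was −1.08 over the 9 members and −0.12 over all tested genes. For no member did the knockout libraries all lie below, or all above, the wild-type range, as they did for 4.62% and 1.52% of tested genes.

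**Figure D1:**
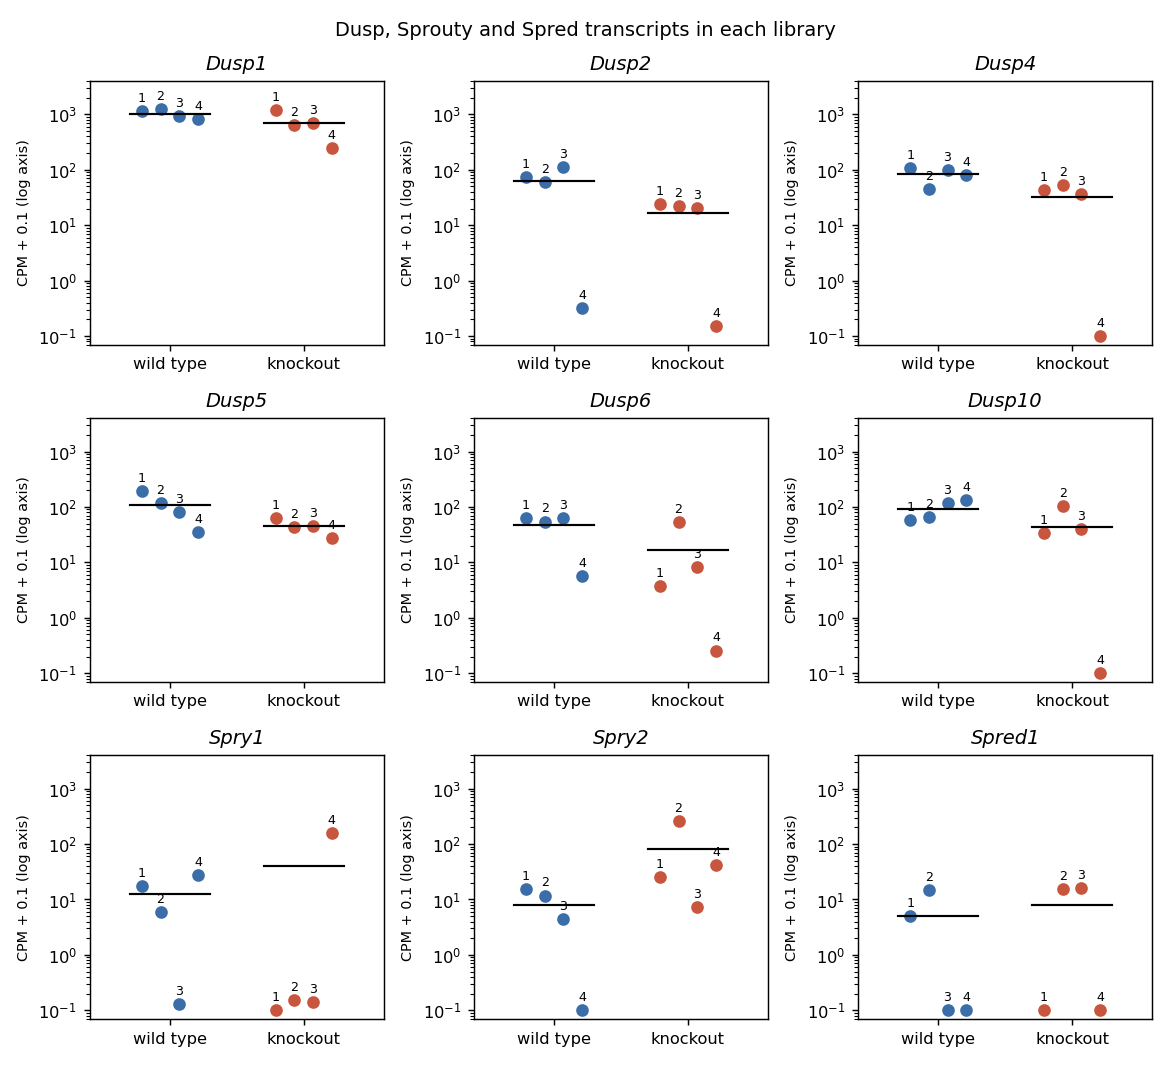
CPM + 0.1 on a log axis for each member in each library. Points carry the replicate number, wild type is blue, knockout is red, and lines are means of 4 libraries. Dusp1 lay at 245 to 1244 CPM, Dusp2 and Dusp6 were lowest within each genotype in replicate 4, and Spry1 was high in knockout replicate 4 alone.

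Dusp1, a nuclear phosphatase of p38, JNK and ERK and an early response gene, was the most abundant member per transcript length. In wild-type replicates 1 to 4 it was at 1143, 1244, 925 and 834 CPM, and in knockout replicates 1 to 4 at 1194, 642, 693 and 245 CPM. Knockout replicate 1 lay within the wild-type range and the other 3 below it, so the groups overlapped. The means were 1036 ± 190 and 694 ± 389 CPM (SD, n = 4 each), and the log2 fold change was −0.58 (SE 0.37, edgeR adjusted p = 0.9999), with an interval of 2 SE from −1.33 to 0.17. Which knockout library entered moved this value: it was −0.97 without knockout replicate 1 and −0.31 without knockout replicate 4. In the GENCODE annotation, Dusp1 overlaps Ergic1 on the opposite strand, and no strand setting was given for the counts.

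Dusp5, a nuclear phosphatase specific for ERK, was at 195, 118, 80.8 and 35.7 CPM in wild-type replicates 1 to 4. In knockout it was at 62.5, 42.7, 44.8 and 27.5 CPM. Every knockout library lay below wild-type replicates 1 to 3, while wild-type replicate 4 lay within the knockout range. The means were 107 ± 67.5 and 44.4 ± 14.3 CPM (SD, n = 4 each), with a log2 fold change of −1.28 (SE 0.80, edgeR adjusted p = 0.9999). Without replicate 4 of both genotypes it was −1.41 (SE 0.46, edgeR adjusted p = 0.439), and without wild-type replicate 1, the highest library, it was −0.82. A GENCODE antisense transcript overlaps Dusp5, and with no strand setting given, reads of both may not have been told apart.

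Dusp2, a nuclear phosphatase of activated lymphocytes, was at 73.4, 61.1, 114 and 0.221 CPM in the wild-type libraries and at 24.2, 22.5, 20.1 and 0.0522 CPM in knockout. Replicate 4 of both genotypes held 5 counts and 1 count, respectively, too few to give a level. Among replicates 1 to 3, the wild-type values of 82.8 ± 27.8 CPM and the knockout values of 22.3 ± 2.06 CPM (SD, n = 3 each) did not overlap. Over all libraries the log2 fold change was −1.89 (SE 1.78, edgeR adjusted p = 0.9999). Without replicate 4 of both it was −1.91 with a smaller error (SE 0.58, edgeR adjusted p = 0.435).

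Dusp4, a nuclear phosphatase of ERK, JNK and p38, was at 108, 44.5, 99.6 and 81.8 CPM in the wild-type libraries and at 42.5, 52.5, 35.8 and 0 CPM in knockout. Knockout replicate 2 lay above wild-type replicate 2, and the other 3 knockout libraries lay below all wild-type libraries. The means were 83.5 ± 28.2 and 32.7 ± 22.9 CPM (SD, n = 4 each) and the log2 fold change was −1.35 (SE 1.47). A count of 0 in knockout replicate 4 allows up to 0.157 CPM, by counting error alone. Without replicate 4 of both genotypes the log2 fold change was −0.97 (SE 0.54, edgeR adjusted p = 0.954).

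Dusp6, the cytoplasmic phosphatase specific for ERK, was at 62.6, 54.5, 62.8 and 5.61 CPM in the wild-type libraries. In knockout it was at 3.71, 53.8, 8.01 and 0.157 CPM. Wild-type replicates 1 to 3 lay close together, whereas knockout replicate 2 reached nearly their level and the other knockout libraries lay at 8.01 CPM or lower. The log2 fold change was −1.50 (SE 1.70, edgeR adjusted p = 0.9999), and −3.57 (edgeR adjusted p = 0.9998) without knockout replicate 2. Dusp10, a phosphatase of JNK and p38, was at 57.5, 65.2, 118 and 133 CPM in the wild-type libraries and at 34.1, 102, 39.9 and 0 CPM in knockout. Knockout replicate 2 again lay within the wild-type range. Its log2 fold change was −1.08 (SE 1.42, edgeR adjusted p = 0.9999), and it was −0.47 without replicate 4 of both genotypes and −1.94 without knockout replicate 2. In GENCODE, Dusp10 overlaps 1700056E22Rik on the opposite strand.

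With replicates 1 to 3 alone, 3 of the 9 members (Dusp2, Dusp5 and Dusp6) had every knockout library below every wild-type library, as did 9.9% of tested genes, and none had every knockout library above (5.64% of tested genes). For Dusp6 the gap was narrow, from 53.8 to 54.5 CPM. In the fit without replicate 4 of both genotypes, 2 members (Dusp2 and Dusp5) were lower at an unadjusted p under 0.05, against 4.26% of 9137 genes, and 1 (Spry2, log2 fold change 3.18, SE 1.31) was higher, against 2.82%. After adjustment 0 members and 0% of genes passed. That comparison was chosen after the values were seen. In replicates 1 to 3 every knockout library also had fewer counts and fewer genes with a count than every wild-type library. The part of this in the differences was not tested. The summed CPM of the 5 Dusp genes other than Dusp1 was 497, 343, 475 and 256 in wild-type replicates 1 to 4 and 167, 273, 149 and 27.7 in knockout replicates 1 to 4, so knockout replicate 2 lay above the lowest wild-type library.

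Spry2, a membrane-associated inhibitor of Ras to ERK signalling, was at 15.6, 11.7, 4.31 and 0 CPM in the wild-type libraries and at 25.1, 258, 7.09 and 42.2 CPM in knockout. In knockout, 3 libraries exceeded the whole wild-type range, and knockout replicate 3 lay within their range. The log2 fold change was 3.39 (SE 1.84, edgeR adjusted p = 0.9999), with an interval of 2 SE from −0.28 to 7.07. Without knockout replicate 2, which held 4640 counts of it, the value was 1.62. Spry1, a second inhibitor of the same family, was at 17.4, 5.78, 0.0308 and 27.2 CPM in wild type. In knockout replicates 1 to 4 it had 0, 1, 1 and 3026 counts, the last being 158 CPM. The direction of its difference rested on that 1 library, which had 1.78 CPM of Cd4. The log2 fold change was 1.65 (SE 2.60) with it and −8.46 (SE 3.39, edgeR adjusted p = 0.532) without it. Spred1, which brings the Ras-inactivating protein neurofibromin to the membrane, was at 5.003, 15.03, 0 and 0 CPM in the wild-type libraries and at 0, 15.2, 15.9 and 0 CPM in knockout. It was seen in 2 of 4 libraries of each genotype, and its log2 fold change of 0.63 had an SE of 2.81 (edgeR adjusted p = 0.9999).

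**Figure D2:**
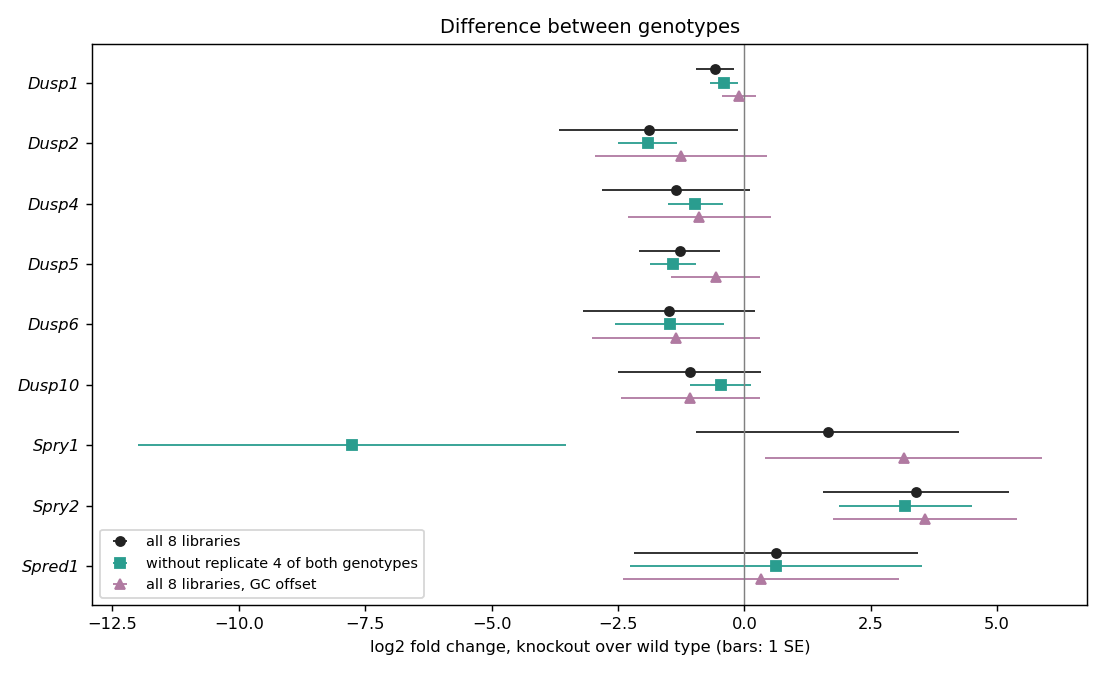
Log2 fold change, knockout over wild type, of each member with bars of 1 SE, for all 8 libraries (circles), without replicate 4 of both genotypes (squares) and with an offset for GC content (triangles). The 6 Dusp estimates lay below 0 in all 3 settings, and Spry1 turned from 1.65 to −7.76 without replicate 4.

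Transcripts of the members differed in base composition. The GC content of the longest coding transcript was 59.2% for Dusp2, 56.7% for Dusp5 and Spry1, 56% for Dusp4, 54.9% for Dusp1, 49% for Dusp6, 48.4% for Dusp10, 46.2% for Spry2 and 41.2% for Spred1. Among abundant tested genes these lay from the percentile 10.3 (Spred1) to 97.3 (Dusp2), and Dusp1 lay at 82.8 and Dusp5 at 90.6. With an offset that removes each library's trend on GC content, the log2 fold change of Dusp1 was −0.10 (SE 0.33) and that of Dusp5 −0.56 (SE 0.88), while Dusp2 was at −1.26 and Dusp4 at −0.89. Those of Dusp6 and Dusp10, at the percentiles 52.8 and 49.2, were −1.36 and −1.07. The offset moved the median of all tested genes by 0.28. Relative to that median Dusp1 was at −0.46 before and −0.26 after it, Dusp5 at −1.15 and −0.72, and Dusp6 at −1.37 and −1.52.

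Levels of different genes were compared as CPM per kilobase of transcript. In wild type, Dusp1 was at 521 ± 95.3 CPM per kilobase (SD, n = 4), and its lowest library lay above the highest of any other member. It made up 69.5% to 81.7% of the summed Dusp level per kilobase in wild type and 75.3% to 91.7% in knockout. Dusp5 followed at 43.4 ± 27.3, Dusp2 at 38.5 ± 29.1, Dusp10 at 33.4 ± 13.4, Dusp4 at 30.5 ± 10.3 and Dusp6 at 16.6 ± 9.81 CPM per kilobase. Spry1, Spry2 and Spred1 were lowest, at 4.55 ± 4.38, 3.78 ± 3.37 and 0.832 ± 1.18 CPM per kilobase. From Dusp5 down to Spred1, each gene's range overlapped that of the next, so the order of neighbours did not exceed the spread between libraries. The lowest libraries of Dusp5, Dusp10 and Dusp4, at 14.4, 20.6 and 16.3 CPM per kilobase, lay above every Sprouty and Spred library. Those reached at most 9.82 CPM per kilobase (Spry1), while Dusp2 and Dusp6 went down to 0.137 and 2.01 CPM per kilobase. In knockout Dusp1 was again first at 349 ± 196 CPM per kilobase. Spry2 came second by its mean of 39.8 ± 56.2 CPM per kilobase, which knockout replicate 2 set at 124, and its median of 16.1 lay below the 17.7 of Dusp5.

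**Figure D3:**
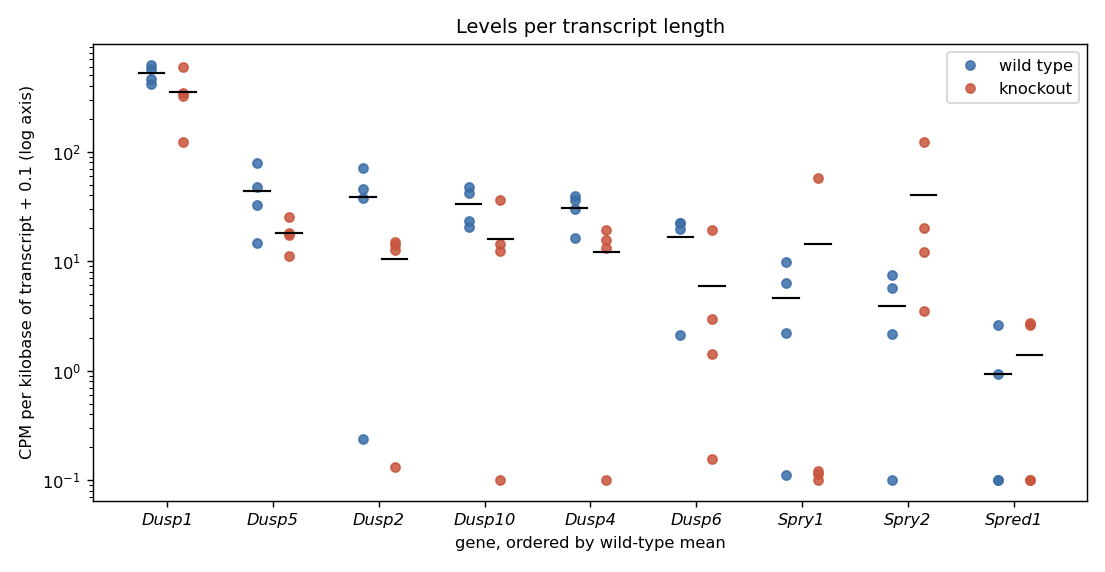
CPM per kilobase of transcript + 0.1 on a log axis, by gene in the order of the wild-type mean. Points are libraries, blue for wild type and red for knockout, and lines are means of 4. Dusp1 stands above every other member in wild type, at 419 to 625 CPM per kilobase.

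The genes with the most similar profile over the 8 libraries were taken by the smallest root mean square difference of centred log2 CPM among 2767 genes seen in every library. For Dusp1 these were Nsa2 (0.27) and Mtfr1l (0.29), where the median gene was at 1.07. For Dusp5 they were Rpl10 (0.44) and H2afj (0.44), against a median of 1.17. Among the genes closest to Dusp2 was Txnrd1 (1.01), and Dusp6 lay closest to Pip4k2a (0.92) and Hdgf (1.10). Txnrd1 shared with Dusp2 the near absence from replicate 4 of both genotypes, where it stood at 0.530 CPM (wild type) and 0.104 CPM (knockout).

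Other dual-specificity and slingshot phosphatases had estimates in both directions: of 20 genes 11 were tested in edgeR, 6 with higher and 5 with lower estimates, a median log2 fold change of 0.09, and 0 that passed in either direction (0 at an unadjusted p under 0.05). Their difference from the 6 Dusp members was not tested. The 3 with the smallest p were Dusp3, a phosphatase of ERK and JNK, at 90.9 ± 40.7 and 148 ± 58.1 CPM in wild type and knockout, Dusp7, a cytoplasmic ERK phosphatase, at 15.1 ± 15.4 and 2.15 ± 2.40 CPM, and Dusp14 at 70.9 ± 19.0 and 13.7 ± 22.1 CPM (SD, n = 4 each). Dusp14 was at 50.4 to 87.1 CPM in the wild-type libraries and at 0, 8.61, 46.2 and 0 CPM in knockout, with a log2 fold change of −2.37 (SE 2.02, edgeR adjusted p = 0.9999). Its knockout libraries all lay below its wild-type range, as in 4.62% of tested genes. The same held for Ssh2, at 114 to 158 CPM in wild type and 0 to 102 CPM in knockout (log2 fold change −1.11, SE 1.27).

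Among further inhibitors of Ras and receptor signalling, 17 of 25 were tested, 11 with lower and 6 with higher estimates (median −0.47). In edgeR 0 passed, and 1 was lower at an unadjusted p under 0.05, against 1.97% of all tested genes. Spry4 was at 0 in every library, and Spred2 had more than 4 counts only in wild-type replicates 2 and 4, with 47 and 405. Dok2, an adaptor that recruits Ras GTPase activators, had the smallest p of this list, at 530 ± 152 CPM in wild type against 256 ± 130 CPM (log2 fold change −1.05, SE 0.44, n = 4 each, edgeR adjusted p = 0.9999). The knockout libraries of Dok2 all lay under its wild-type range. Its log2 fold change was −0.46 with the GC offset (median of all tested genes 0.16) and −0.54 without replicate 4 of both genotypes. Ptpn22, a phosphatase that dampens T cell receptor signalling, was at 233 ± 40.4 and 363 ± 166 CPM, and Rasal3, a Ras GTPase activator of T cells, at 137 ± 46.4 and 55.3 ± 43.8 CPM.

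Genes of the kinase cascades that these inhibitors act on also had estimates on both sides of 0. Of 25 genes of the Ras to ERK cascade 23 were tested, 16 lower and 7 higher, with a median log2 fold change of −0.28. In edgeR 0 passed (1 lower at an unadjusted p under 0.05, against 1.97% of all tested genes). Mapk3, which encodes ERK1, was at 6.37 ± 12.3 and 4.93 ± 6.41 CPM. Lat, the adaptor that links the T cell receptor to Ras, had the smallest p, at 1802 ± 204 and 1395 ± 104 CPM (log2 fold change −0.37, SE 0.17, n = 4 each, edgeR adjusted p = 0.9999). Its sign turned with the GC offset (0.44, where the median of all tested genes was 0.16). Mknk1, a kinase that ERK and p38 activate, was at 10.9 ± 7.43 and 1.53 ± 3.05 CPM. In the JNK and p38 cascades 18 of 21 genes were tested, 11 lower and 7 higher, with a median of −0.30 and 0 that passed in edgeR (0 at an unadjusted p under 0.05). Mapk9, which encodes JNK2, ranged from 40.1 to 88.8 CPM in wild type and from 83.3 to 171 CPM in knockout, a log2 fold change of 1.15 (SE 0.60). Map3k1, an upstream kinase of JNK, was at 1761 ± 107 and 2728 ± 1854 CPM, with 5495 CPM in knockout replicate 2, and Tab2, an adaptor of the kinase TAK1, at 98.1 ± 35.2 and 173 ± 101.2 CPM.

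Transcripts known to be raised by ERK signalling were lower in estimate more often than higher: of 30 genes 27 were tested, 20 lower and 7 higher, with a median log2 fold change of −0.61 and 0 that passed in edgeR (4 lower and 0 higher at an unadjusted p under 0.05, where 1.97% of all tested genes were lower and 1.87% higher). Their summed level was 12894, 10638, 11129 and 16311 CPM in wild-type replicates 1 to 4 and 9971, 6560, 6538 and 7606 CPM in knockout, so the groups did not overlap. Such sums are set mostly by abundant genes, and how often sums of other genes separate was not computed. Nr4a1, an early response gene of the antigen receptor, accounted for 3911 ± 985 and 1741 ± 742 CPM of these sums (log2 fold change −1.17, SE 0.29, edgeR adjusted p = 0.460). Junb accounted for 2162 ± 928 and 939 ± 536 CPM. Phlda1, an early response gene downstream of ERK, was at 213 ± 31.2 and 93.3 ± 10.7 CPM (−1.19, SE 0.36, edgeR adjusted p = 0.514), and Ier2 at 888 ± 44.7 and 537 ± 163 CPM (−0.73, SE 0.24, edgeR adjusted p = 0.655). For Nr4a1, Phlda1, Ier2 and Csrnp1, 4 of the 27 tested, the knockout libraries all lay under the wild-type range, as in 4.62% of all tested genes. Corrected for GC content, Nr4a1, Phlda1 and Ier2 stood at −0.38, −0.36 and 0.03 on the log2 scale. The correction moved the median of all tested genes from −0.12 to 0.16. With it some other lower estimates of this list turned, among them Egr1 (0.87), while Fos was at −0.08. Egr1 and Fos, which ERK induces through serum response factor, did not separate: Egr1 was at 116 to 150 CPM in the wild-type libraries and at 121, 16.1, 129 and 208 CPM in knockout, and Fos at 489 ± 171 and 320 ± 97.6 CPM.

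Enzymatic tissue digestion is itself known to raise early response transcripts, Dusp1 among them. The list of such transcripts, without the members, had 16 lower and 6 higher estimates among 22 tested of 24. Its median log2 fold change was −0.24 and 0 passed in edgeR (2 lower at an unadjusted p under 0.05, against 1.97% of all tested genes). It summed to 16558 to 19088 CPM in wild type and to 16460, 19489, 14380 and 12265 CPM in knockout libraries 1 to 4. It shares 9 genes with the ERK list, Junb, Ier2 and Btg2 included, which had the smallest p in it. Junb was at 2162 ± 928 and 939 ± 536 CPM, and Btg2, a brake on proliferation, at 1482 ± 353 and 981 ± 421 CPM (SD, n = 4 each). The direction counts of this list are without the GC offset, with which several of its lower estimates turned. With the offset Junb, Ier2 and Btg2 were at −0.40, 0.03 and −0.17, where the median of all tested genes was 0.16. T cell markers had 10 lower and 2 higher estimates among 12 tested (median −0.38). At an unadjusted p under 0.05, 4 were lower and 1 higher, where 1.97% of all tested genes were lower and 1.87% higher. Antigen-presenting cell markers had 8 higher and 3 lower among 11 tested (median 1.41), with 4 higher and 0 lower at that p, namely Cd74 and the class II chains H2-Ab1, H2-Aa and H2-Eb1. In both lists 0 passed after adjustment in edgeR. Replicates 2 and 4 were the 2 knockout libraries with the highest sums of the latter. They had the highest Spry2 and the highest Spry1, respectively, though replicate 2 held 1 count of Spry1. Knockout replicate 1, at a sum of 8813 CPM, had 25.1 CPM of Spry2 and 0 counts of Spry1. The part of antigen-presenting cells in the Sprouty values was not tested.

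**Figure D4:**
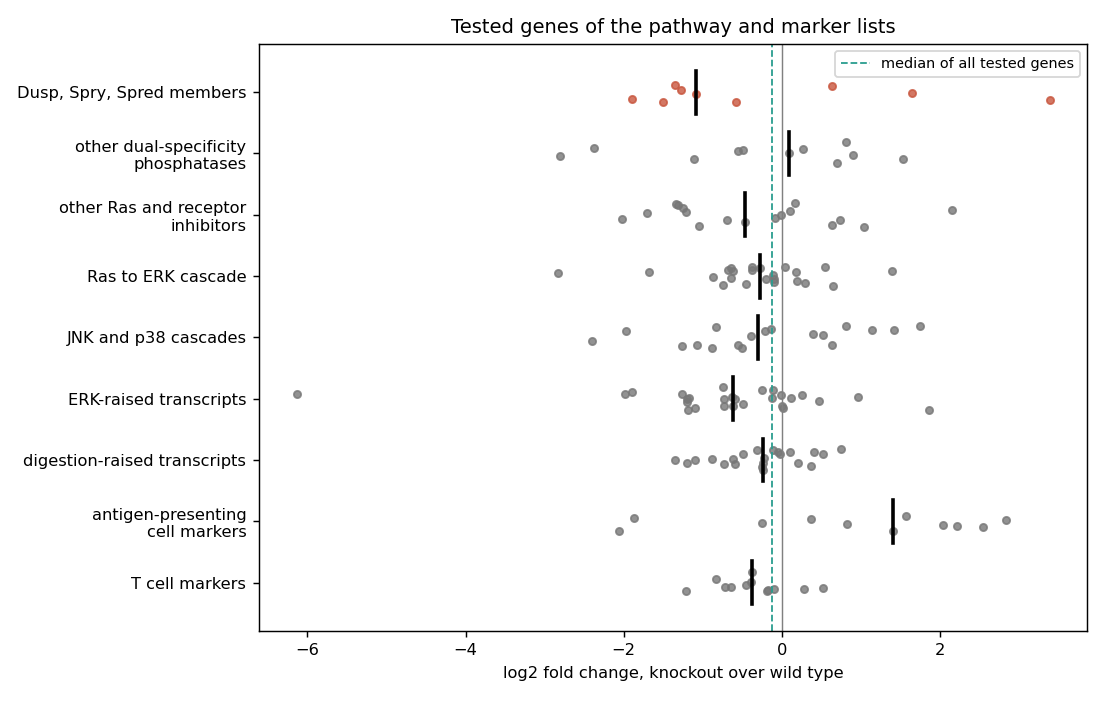
Log2 fold change, knockout over wild type, of every tested gene of the members (red), and of the pathway lists and the antigen-presenting cell and T cell marker lists (grey). Black bars are list medians and the dashed line is the median of all tested genes, −0.12. The members split into 6 Dusp genes below 0 and 3 Sprouty and Spred genes above 0, of which Spry1 turned without knockout replicate 4.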

How the data were processed

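The deposited table holds raw counts of reads per gene symbol, which the authors did not normalize. Per the submitters' processing notes, tools named are HISAT2 2.1.0, featureCounts and edgeR 3.28.1, with mm10 as the build. The annotation and strand setting are not given in the sources used here. A low-input kit was used, per the labels' protocols, and its amplification step can drop rare transcripts by chance, while intervals from counts cover counting error only.

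From these counts, genes were filtered with filterByExpr (minimum count 10, minimum total 15), scaled by TMM and tested for genotype in edgeR 4.0.16 (R 4.3.3; quasi-likelihood test, robust dispersion, Benjamini-Hochberg adjustment over 8489 genes, threshold 0.05). SE was taken as log2 fold change divided by root F. CPM uses the effective library size. A count of 0 allows up to 3 counts. Per-length levels and GC content used the longest coding GENCODE M21 transcript (GRCm38, the coordinates of mm10), GC being known for 96.6% of tested genes. Named genes were all 9 members, the 3 with the smallest p in each pathway list, 10 fixed context genes and the 2 most similar profiles (mean CPM at least 50) of each member seen in all libraries. Some genes that this rule names are not reported here. Csrnp1, Ssh2, Cd4, Cd8b1, H2-Aa and H2-Eb1 were named after their values were seen.

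The members and lists were chosen with earlier results of these data known. Alternatives were other filters and scalings, DESeq2 1.42.0, limma 3.58.1 voom, the replicate number as a block, a GC offset (loess, span 0.75), each library left out and a threshold of 0.1. Leaving out replicate 4 of both genotypes was added after the data were seen.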

Additional observations from a re-analysis of the deposited data

Results flagged for a closer look

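In 5 of 18 sets of 4 libraries (9 members in 2 genotypes), 1 library lay far from the other 3 by Dixon's ratio of gap to range. For independent normal values, chance alone passes it in about 1 in 20 sets. These sets hold raw CPM, some near 0, and share the same libraries, so their number cannot be set against that rate. Knockout replicate 4 was far above the rest for Spry1, at 158 CPM, and just past the critical ratio below the rest for Dusp2, at 0.0522 CPM. Knockout replicate 2 was far above the rest for Spry2, at 258 CPM, and for Dusp6, at 53.8 CPM. Wild-type replicate 4 was far below the rest for Dusp6, at 5.61 CPM.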

How the results depend on the processing

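In edgeR 0 genes and 0 members passed under every filter, scaling, left-out library, block, GC offset and the threshold of 0.1. DESeq2 called 387 genes (61 higher, 326 lower), limma voom 4 and its version with quality weights 4, with 0 members in each. Of 179 alternative values of the 9 members, 172 kept their direction, 7 turned and 0 passed. Spry1 turned in limma voom (−3.20), with quality weights (−4.84), and without replicate 4 of both genotypes (−7.76, without a filter), and ran from −8.46 to 2.36 with 1 library left out. Limma voom put Dusp4, Dusp6 and Dusp10 at −3.56, −3.29 and −3.38. The stricter filter removed Spred1. With 1 library left out, Dusp2 ran from −2.31 to −1.42, Dusp4 from −1.70 to −0.95 and Spred1 from 0.02 to 2.19. With the replicate block, Spry1 was at −3.34, Dusp6 at −3.17, Dusp10 at −1.65 and Dusp1 at −0.76 (0 members passed), and with the block and the GC offset Spry1 was at −2.83 and Spred1 at −0.16. The cause of these turns was not tested. Same-numbered libraries did not deviate together (correlations of −0.0218 to 0.053 across genes), so the numbers were not taken as pairs. Zeros in single libraries limit the scarce members: 55.4% of tested genes were at 0 in at least 1 library.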
